A study of Rattus norvegicus with 2 samples.

Results

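The genes described here carry glucose into the cell, split it to pyruvate and lactate, set the fate of pyruvate and run the pentose phosphate branch. They were taken from a list of 45 symbols, and a gene was measured where the array had a probe set annotated with that symbol alone. Of the 45 genes, 38 were measured, each by 1 probe set, out of 18166 genes on the array. The other 7 (Hk1, Tpi1, Pgam1, Eno1, Pkm, Mpc2 and Pgd) had no such probe set and were not analysed here. For Tpi1, Eno1, Pkm and Pgd the symbol appeared only on probe sets shared with other symbols.

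The samples were 1 array of rat C6 glioma cells left undifferentiated (C6) and 1 array of C6 cells induced with small molecules (SMiG), both grown in DMEM with 10% FBS and antibiotics. The source and description of the SMiG sample give forskolin, which activates adenylyl cyclase, rapamycin, which inhibits mTORC1, and the BET bromodomain inhibitor I-BET151. A treatment protocol attached to both samples instead gives the GSK3 inhibitor CHIR99021 at 20 µM with forskolin at 100 µM for 35 days, and the labels do not settle which was used. The series asks whether glioma cells can be turned towards glia by such compounds. C6 is a single established line, and the labels do not say whether the 2 samples came from parallel cultures.

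Each group has a single array, so replicate error is unknown and no test was made. Every difference below therefore compares these 2 libraries only, and a lower signal in bulk RNA cannot be told apart from fewer cells with the transcript. A difference is SMiG minus C6 on the log2 scale, and 2-fold is a difference of 1. A gene was detected where at least 1 array exceeded the floor, the 95th percentile of olfactory and vomeronasal receptor genes on that array (4.86 in C6 and 4.96 in SMiG), which gave 10903 detected genes. Each array detected all 7 listed glial markers, and some differed between arrays: Cnp had a difference of 1.52, S100b 1.20, Cspg4 0.42, Olig2 0.35, Vim 0.01, Nes −0.15 and Gfap −0.56. Olig2 (5.08 in C6 and 5.43 in SMiG) and Gfap (6.045 and 5.48) had the lowest signals of the 7, not far above the floor. Of the markers of other cell types, 2 of 5 for microglia, 1 of 2 measured for endothelium and 2 of 4 for neurons were detected. The detected ones were Tmem119 (5.82 in C6 and 5.01 in SMiG) and P2ry12 (4.46 and 5.32) of microglia, Tek (5.83 and 4.98) of endothelium, and Snap25 (5.65 and 6.17) and Rbfox3 (5.12 and 4.94) of neurons. The rest, Aif1, Cx3cr1, Csf1r, Cdh5, Syt1 and Tubb3, exceeded the floor on neither array. The part of these markers in the results below was not tested.

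Glucose enters cells through carriers of the SLC2A (GLUT) family, is phosphorylated by hexokinase and is broken down to pyruvate, which is either reduced to lactate by lactate dehydrogenase or imported into mitochondria and oxidised by pyruvate dehydrogenase. The pentose phosphate branch diverts glucose 6-phosphate to NADPH and ribose phosphate. Most steps have several isozymes that differ in regulation and tissue, and tumour cells, gliomas included, commonly run glycolysis at a high rate. Several of the genes, among them Slc2a1, Slc2a3, Hk2, Pgk1 and Pdk1, are well known targets of hypoxia-inducible factors.

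The start regions of 6 members are shown because their genes lay at the ends of the range of differences: Slc2a1, Hk2, Pdk1 and Pfkp at the low end, and Ldhb and Aldoc at the high end. Slc2a3 and Pgk1, which were also at the low end, had no entry in the table used. Each sequence is from RefSeq on GRCr8 and runs 5′ to 3′ on the gene's strand from 250 bases before the transcription start to 50 after it. Capitals mark ACGTG or GCGTG on either strand, the core of the hypoxia response element.
Slc2a1, chr5:138002272-138002571, plus strand: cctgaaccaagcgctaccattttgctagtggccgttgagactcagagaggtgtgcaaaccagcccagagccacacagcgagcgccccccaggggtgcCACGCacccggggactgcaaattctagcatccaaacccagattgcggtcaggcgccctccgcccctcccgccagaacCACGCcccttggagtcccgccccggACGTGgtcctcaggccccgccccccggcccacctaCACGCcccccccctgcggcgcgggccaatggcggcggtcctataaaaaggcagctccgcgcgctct
Hk2, chr4:116841226-116841525, minus strand: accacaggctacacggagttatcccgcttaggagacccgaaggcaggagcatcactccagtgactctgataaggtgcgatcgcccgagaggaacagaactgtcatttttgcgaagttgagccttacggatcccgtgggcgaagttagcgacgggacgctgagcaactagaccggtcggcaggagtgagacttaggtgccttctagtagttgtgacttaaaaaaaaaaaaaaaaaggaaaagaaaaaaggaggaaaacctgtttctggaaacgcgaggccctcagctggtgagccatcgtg
Pfkp, chr17:68639563-68639862, plus strand: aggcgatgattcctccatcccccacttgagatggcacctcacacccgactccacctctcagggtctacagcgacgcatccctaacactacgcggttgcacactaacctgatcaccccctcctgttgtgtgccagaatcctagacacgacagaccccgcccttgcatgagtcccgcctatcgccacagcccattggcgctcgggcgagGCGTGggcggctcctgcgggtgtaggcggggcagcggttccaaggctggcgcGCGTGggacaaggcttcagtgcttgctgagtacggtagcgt
Pdk1, chr3:77113264-77113563, plus strand: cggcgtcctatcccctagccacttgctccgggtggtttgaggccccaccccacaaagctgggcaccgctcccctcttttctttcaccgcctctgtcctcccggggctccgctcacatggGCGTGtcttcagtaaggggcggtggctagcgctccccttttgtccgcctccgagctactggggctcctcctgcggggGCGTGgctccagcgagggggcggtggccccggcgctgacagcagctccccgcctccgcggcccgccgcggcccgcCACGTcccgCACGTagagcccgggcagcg
Ldhb, chr4:177177359-177177658, minus strand: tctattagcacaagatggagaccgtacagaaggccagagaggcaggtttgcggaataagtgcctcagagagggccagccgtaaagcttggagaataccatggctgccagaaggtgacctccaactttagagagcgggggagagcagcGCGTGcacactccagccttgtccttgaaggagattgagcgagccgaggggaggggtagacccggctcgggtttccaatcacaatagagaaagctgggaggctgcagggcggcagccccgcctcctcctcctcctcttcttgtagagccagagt
Aldoc, chr10:63715294-63715593, plus strand: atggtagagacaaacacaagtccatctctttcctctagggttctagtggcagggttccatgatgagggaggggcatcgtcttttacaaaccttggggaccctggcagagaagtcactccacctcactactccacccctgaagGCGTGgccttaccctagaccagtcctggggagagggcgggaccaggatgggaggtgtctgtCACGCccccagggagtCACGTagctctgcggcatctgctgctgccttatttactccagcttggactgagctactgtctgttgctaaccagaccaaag

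The core was present in Slc2a1 (4 matches), Pdk1 (4) and Pfkp (2), and also in the members with higher signal in SMiG, Aldoc (3) and Ldhb (1), while the window of Hk2 held none of these letters. Of the 38 measured members, 33 had at least 1 window, and 20 of the 33 held a match. The share over all 33469 windows in the table was 41.6%, and over the windows of detected genes 60.5%, against 57.1% of the 35 member windows. Taken apart, the 2 forms lay on opposite sides of the background. ACGTG was in 40.0% of the member windows against 25.3% for detected genes, and GCGTG in 37.1% against 48.8%. CACGTG, an E-box that contains ACGTG, was found in 5 of the 33 members, among them Ldha, and in none of the 6 windows shown. By window its share was 14.3% for members against 9.53% for detected genes. GGGCGG, the GC box, was found in 22 of the 33 members, or 62.9% of the member windows, against 60.7% of the windows of detected genes. TGATGNAA, the core of the amino acid response element, was found in 1 (Pfkfb2), or 2.86% of the member windows, against 1.94%. Both strands were searched for each. The matches are a description of letters in these windows.

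Of the 38 measured genes, 36 were detected, and 34 of these were above the floor on both arrays. Lower signal in SMiG was more frequent than higher signal: 24 of the 36 had a negative difference and 12 a positive one, beside 5482 negative and 5340 positive among the 10903 detected genes. At a threshold of 2-fold, 6 members had lower signal in SMiG (16.7%) and 0 had higher signal, beside 6.53% lower and 3.20% higher among all detected genes. The 6 were the carriers Slc2a3 and Slc2a1, the enzyme genes Hk2, Pfkp and Pgk1, and the kinase gene Pdk1. All 6 were among the 34 members above the floor on both arrays, where the background was 5.35% lower and 3.21% higher. At 1.5-fold, 12 members were lower and 3 higher (33.3% and 8.33%), beside 15.1% and 10.5% of all detected genes, and at 3-fold 2 were lower and 0 higher, beside 2.51% and 0.734%. The median difference of the 36 was −0.19, beside −0.0040 for all detected genes. Glycolytic genes such as Ldha, Aldoa and Pgk1 have processed pseudogenes, and whether their probes also read such copies was not tested. The members had been picked with earlier results of these data in view.

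**Figure D1:**
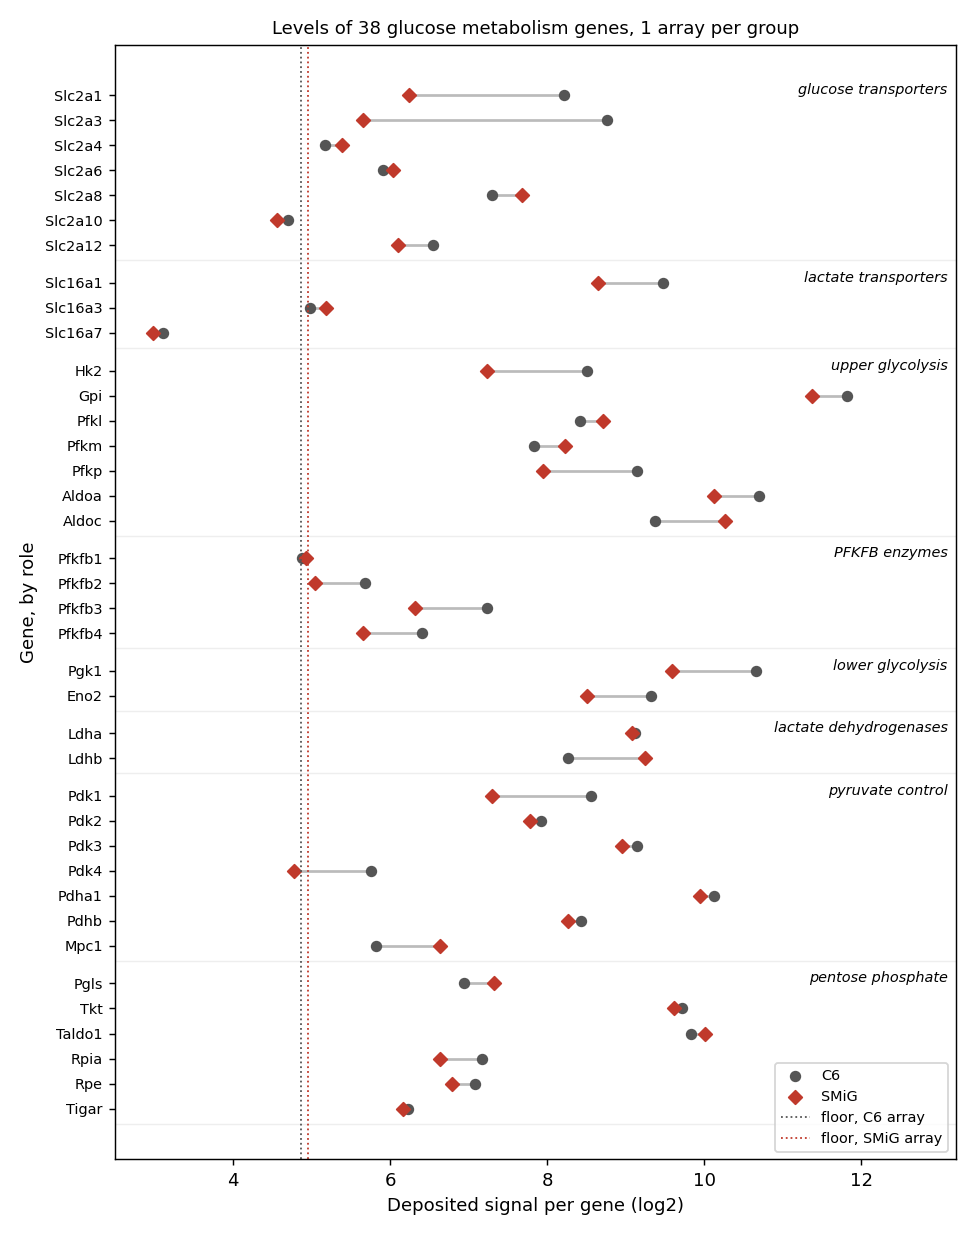
Deposited log2 signal of each of the 38 measured genes, ordered by role, with C6 as grey circles and SMiG as red diamonds joined by a line. Dotted lines mark the floors of the 2 arrays. Slc2a3 and Slc2a1 have the longest lines, both towards lower signal in SMiG, whereas Aldoc, Ldhb and Mpc1 run the other way.

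Among the glucose carriers, only Slc2a3 and Slc2a1 were past 2-fold, both with lower signal in SMiG. Slc2a3, encoding GLUT3, the high-affinity carrier typical of neurons, was at 8.76 in C6 and 5.65 in SMiG, a difference of −3.11 (8.65-fold). It was rank 33 from the lowest of the 10903 detected genes. Slc2a1, encoding GLUT1, the basal carrier of most dividing cells and of the blood-brain barrier, was at 8.21 in C6 and 6.23 in SMiG, a difference of −1.98 (3.93-fold, rank 146). Both stayed above the floor in SMiG. Slc2a12, encoding the carrier GLUT12, was also lower, at 6.54 in C6 and 6.10 in SMiG, a difference of −0.45.

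The remaining carriers showed small differences. Slc2a8, encoding GLUT8, a carrier held mostly on intracellular membranes, was at 7.30 in C6 and 7.68 in SMiG. Slc2a6, encoding the lysosomal carrier GLUT6, was at 5.91 and 6.03. Slc2a4, encoding the insulin-regulated carrier GLUT4, was at 5.16 and 5.39, near the floor, where lower signal could hardly be seen. Slc2a10 (4.70 and 4.55) was below the floor on both arrays. Of the 6 detected carriers 3 were higher and 3 lower in SMiG, beside 5340 positive and 5482 negative among the 10903 detected genes. The 2 carriers past 2-fold, both lower, stand beside 6.53% lower and 3.20% higher among all detected genes.

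Monocarboxylate carriers move lactate and pyruvate across the plasma membrane. Slc16a1, encoding MCT1, was at 9.48 in C6 and 8.64 in SMiG, a difference of −0.84 (1.79-fold). Slc16a3, encoding MCT4, the lactate exporter of glycolytic cells, lay just above the floor on both arrays, at 4.98 and 5.18. Slc16a7, encoding MCT2, was below it on both, at 3.10 and 2.98. The MCT1 gene was thus the only one of these 3 carriers with a signal well above the floor.

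In the upper part of glycolysis the members lay on both sides. Hk2, encoding hexokinase 2, the inducible isozyme that commits glucose to the cell, was at 8.50 in C6 and 7.23 in SMiG, a difference of −1.27 (2.42-fold). Gpi, which interconverts glucose and fructose 6-phosphate, was at 11.82 and 11.37, a difference of −0.45 (1.37-fold). Of these consecutive steps, only Hk2 was past 2-fold.

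Phosphofructokinase catalyses the main regulated step of glycolysis, and its 3 subunit genes did not run together. Pfkp, the platelet-type subunit, was at 9.14 in C6 and 7.94 in SMiG, a difference of −1.20 (2.30-fold). Pfkm, the muscle-type subunit, was at 7.83 and 8.22, a difference of 0.39. Pfkl, the liver-type subunit, was at 8.42 and 8.71, a difference of 0.29. The platelet-type subunit alone was lower, and the other two were higher by less than 1.5-fold.

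Aldolase splits fructose 1,6-bisphosphate, and its pair of measured isozymes also parted. Aldoa, the muscle-type and most widely used isozyme, was at 10.70 in C6 and 10.13 in SMiG, a difference of −0.57 (1.48-fold). Aldoc, the brain isozyme and a marker of astrocytes, was at 9.37 in C6 and 10.27 in SMiG, a difference of 0.89 (1.86-fold), at percentile 95.6 of all detected genes. The astrocyte marker Gfap, a dim gene at 6.045 in C6 and 5.48 in SMiG, was lower in SMiG, with a difference of −0.56.

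The PFKFB enzymes make and remove fructose 2,6-bisphosphate, the strongest activator of phosphofructokinase. The 3 genes with a signal above the floor on both arrays were lower in SMiG, none by 2-fold. Pfkfb3, the isozyme with the highest kinase activity and known for driving glycolysis, was at 7.23 in C6 and 6.32 in SMiG, a difference of −0.91 (1.88-fold). Pfkfb4 was at 6.40 and 5.65, a difference of −0.75. Pfkfb2, the heart-type isozyme, was at 5.68 and 5.05, a difference of −0.64. Pfkfb1, the liver-type isozyme, was at 4.88 and 4.93, at the floor. The median over the 4 was −0.69.

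In the lower part of glycolysis, the listed genes Pgk1 and Eno2 were measured, and both were lower in SMiG. Pgk1, encoding phosphoglycerate kinase, which makes the first ATP of the pathway, was at 10.66 in C6 and 9.58 in SMiG, a difference of −1.08 (2.11-fold). Eno2, encoding the neuronal enolase, was at 9.32 and 8.51, a difference of −0.81 (1.76-fold). Pgam1, Eno1 and Pkm, of the mutase, enolase and pyruvate kinase steps, were not analysed here. The muscle-type genes of the wider list described below were on opposite sides, Eno3 at −2.85 and the mutase Pgam2 at 0.67.

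Lactate dehydrogenase is a tetramer of A and B subunits, of which A favours making lactate and B favours making pyruvate. Ldha was nearly equal on the arrays, at 9.11 in C6 and 9.08 in SMiG, a difference of −0.03. Ldhb was at 8.27 in C6 and 9.25 in SMiG, a difference of 0.98 (1.97-fold). Ldhb had the highest difference of all 36 detected members, at percentile 96.6 of detected genes, just under 2-fold.

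Pyruvate dehydrogenase kinases switch off pyruvate dehydrogenase and so keep pyruvate out of the citric acid cycle. Pdk1 was at 8.56 in C6 and 7.30 in SMiG, a difference of −1.25 (2.38-fold). Pdk4, the isozyme induced by fasting, was at 5.76 in C6 and below the floor in SMiG at 4.78, which makes it at least 1.74-fold lower. Pdk2 (7.92 and 7.77) and Pdk3 (9.15 and 8.95) were each within 1.5-fold.

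The targets of the kinases differed little between the arrays. Pdha1, encoding the E1 alpha subunit of pyruvate dehydrogenase that the kinases phosphorylate, was at 10.13 and 9.94, and Pdhb, encoding E1 beta, was at 8.43 and 8.27. Mpc1, encoding a subunit of the carrier that brings pyruvate into mitochondria, was at 5.82 in C6 and 6.63 in SMiG, a difference of 0.81 (1.75-fold). So of the 7 detected genes of pyruvate control 6 had a negative difference and Mpc1 alone a positive one. Among all 10903 detected genes, 5482 were negative and 5340 positive. The differences of Pdk2, Pdk3, Pdha1 and Pdhb were each smaller than 0.32, the SD of the receptor genes used for the floor. Of the 7, only Pdk1 was past 2-fold, beside 6.53% lower and 3.20% higher among all detected genes.

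The pentose phosphate genes differed little. None of the 6 detected members was past 1.5-fold, beside 15.1% lower and 10.5% higher among all detected genes. Most detected genes were thus also within 1.5-fold. The median difference of the 6 was −0.08. Pgls, which acts in the oxidative part, was at 6.94 in C6 and 7.32 in SMiG, a difference of 0.38. In the non-oxidative part, Tkt, encoding transketolase, was at 9.71 and 9.62, and Taldo1, encoding transaldolase, was at 9.84 and 10.01.

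The genes that handle ribulose 5-phosphate were lower by less than 1.5-fold. Rpia, the isomerase that makes ribose 5-phosphate, was at 7.17 and 6.63, a difference of −0.54, and Rpe, the epimerase, was at 7.08 and 6.79. Tigar, encoding a phosphatase that lowers fructose 2,6-bisphosphate, was at 6.23 and 6.17.

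**Figure D2:**
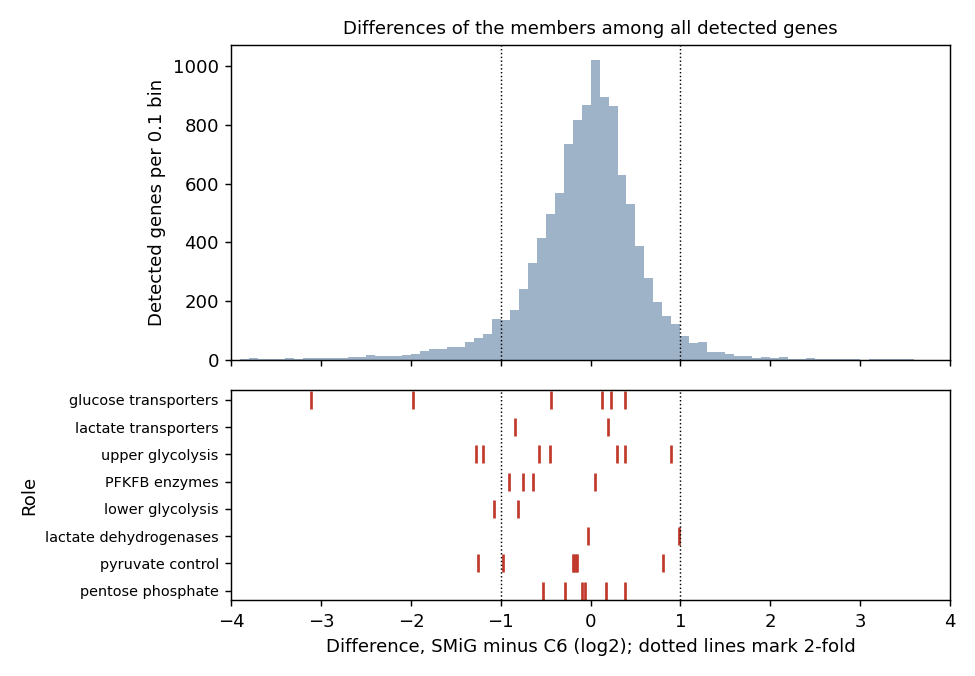
Top, number of detected genes in each 0.1-wide bin of the log2 difference, SMiG minus C6, with the axis limited to −4 to 4. Bottom, each detected member as a tick in the row of its role. Dotted lines mark 2-fold: 6 members lie beyond the left line and 0 beyond the right, and the pentose phosphate ticks all lie between −0.54 and 0.38.

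Because signals of different probe sets cannot be set against each other, isozymes were compared by the gap between their differences. Over the 7 steps with more than 1 detected isozyme there were 33 pairs. As a scale for the assay itself, the 145 detected genes with exactly 2 probe sets had a median gap of 0.19 and a 95th percentile of 0.84 between those probe sets. Of the 33 isozyme pairs, 17 had a wider gap than 0.84. Some of the 145 probe set pairs had equal differences, which lowers that scale. The pairs within a step share genes, and many of the 17 hold Slc2a3 or Slc2a1. Gaps between unlike genes include real differences of expression, and gaps between random pairs of detected genes were not computed. So 17 of 33 describes these arrays only, and whether isozymes parted more than other genes was not tested.

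The widest gap was in the carriers, 3.49 between Slc2a8 and Slc2a3, and the gap between Slc2a1 and Slc2a3, both lower, was 1.14. In phosphofructokinase the gap was 1.59 between Pfkm and Pfkp and 1.49 between Pfkl and Pfkp, while Pfkm and Pfkl differed by 0.09. The aldolase gap, Aldoc over Aldoa, was 1.46, which is 2.76-fold in relative terms. Pdk2 over Pdk1 was 1.10 and Pdk3 over Pdk1 1.06. The gaps of Pdk4, which was below the floor in SMiG, are not listed, though its pairs are among the 33. Dim genes also enter the pairs past 0.84. Slc16a3 over Slc16a1 was 1.04, with Slc16a3 just above the floor, and Pfkfb1 over Pfkfb3 was 0.96, with Pfkfb1 at the floor. The gap of Ldhb over Ldha was 1.01. Within the PFKFB enzymes the 3 lower genes differed from each other by 0.27 or less. These gaps show unequal change between probe sets, not which isozyme was more abundant.

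**Figure D3:**
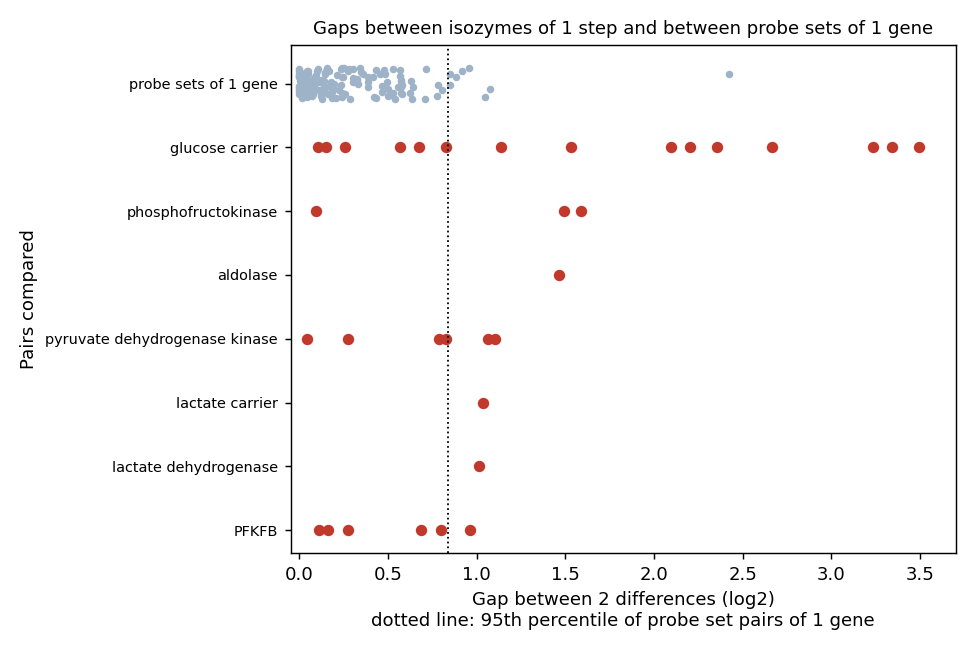
Each red point is a pair of detected isozymes of 1 step, placed by the gap between their log2 differences. Blue points are the 145 pairs of probe sets of 1 gene (vertical scatter is for display), and the dotted line is their 95th percentile of 0.84. The carrier pairs reach 3.49, and the single aldolase pair lies at 1.46.

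A wider list of 69 other genes of glucose metabolism was set beside the members. Part of it covered the members' own pathways: glycolysis, carriers, the pyruvate dehydrogenase complex, and pentose phosphate and ribose. The other arms were glycogen, gluconeogenesis, hexosamine, glycerol phosphate, glucose sensing, and galactose, polyol and fructose use. Of the 69 genes, 56 were measured and 41 detected. Past 2-fold, 5 of the 41 had lower signal in SMiG (12.2%) and 4 of the 41 had higher signal. Both shares were above the 6.53% and 3.20% of all detected genes, in a list chosen with earlier results known. The median difference was −0.18. Without a floor this median was −0.071, and raising dim values to the floor gave −0.11.

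At the low end, Pck2, encoding the mitochondrial enzyme that makes phosphoenolpyruvate, was at 8.78 in C6 and 5.49 in SMiG, a difference of −3.29 (9.80-fold). Eno3, the muscle-type enolase, was at 7.83 and 4.98, a difference of −2.85 (7.19-fold), and in SMiG lay just above the floor. Gys1, encoding glycogen synthase, was at 7.36 and 5.81, a difference of −1.55 (2.92-fold). Thus both measured enolases, Eno2 and Eno3, were lower in SMiG, Eno3 more widely. Galm and Galt, enzymes of galactose use, were at −1.23 and −1.03 on the scale of differences.

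At the high end, Pc, encoding pyruvate carboxylase, which makes oxaloacetate from pyruvate and in brain is typical of astrocytes, was at 6.97 in C6 and 8.90 in SMiG, a difference of 1.93 (3.80-fold). Gpd1, encoding the cytosolic glycerol 3-phosphate dehydrogenase, a marker of oligodendrocytes, was at 9.004 and 10.59, a difference of 1.58. Pygb, the brain glycogen phosphorylase, was at 8.21 and 9.43, a difference of 1.22. Adpgk, an ADP-dependent glucokinase, was at 6.61 and 7.67, a difference of 1.06. In glycogen metabolism the synthase was thus lower and the brain phosphorylase higher. Gpd2, the mitochondrial partner of Gpd1, was at −0.44, and was named after its value was seen.

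Smaller differences followed. G6pc3, a glucose 6-phosphatase, had a difference of −0.78, Sord, encoding sorbitol dehydrogenase, −0.70, and Arrdc4, an arrestin regulated by glucose, −0.70. The hexosamine enzymes Gnpnat1 and Gfpt1 were at −0.62 and −0.55. Pdpr, which regulates the phosphatase that reactivates pyruvate dehydrogenase, was at 0.74, Pgam2, the muscle-type mutase, at 0.67, and Bsg, encoding basigin, the chaperone of the lactate carriers, at 0.63. None of the 6 genes of the pyruvate dehydrogenase complex and its phosphatases was past 2-fold. Among all detected genes 6.53% were lower and 3.20% higher at that threshold, so most genes were also within it.

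**Figure D4:**
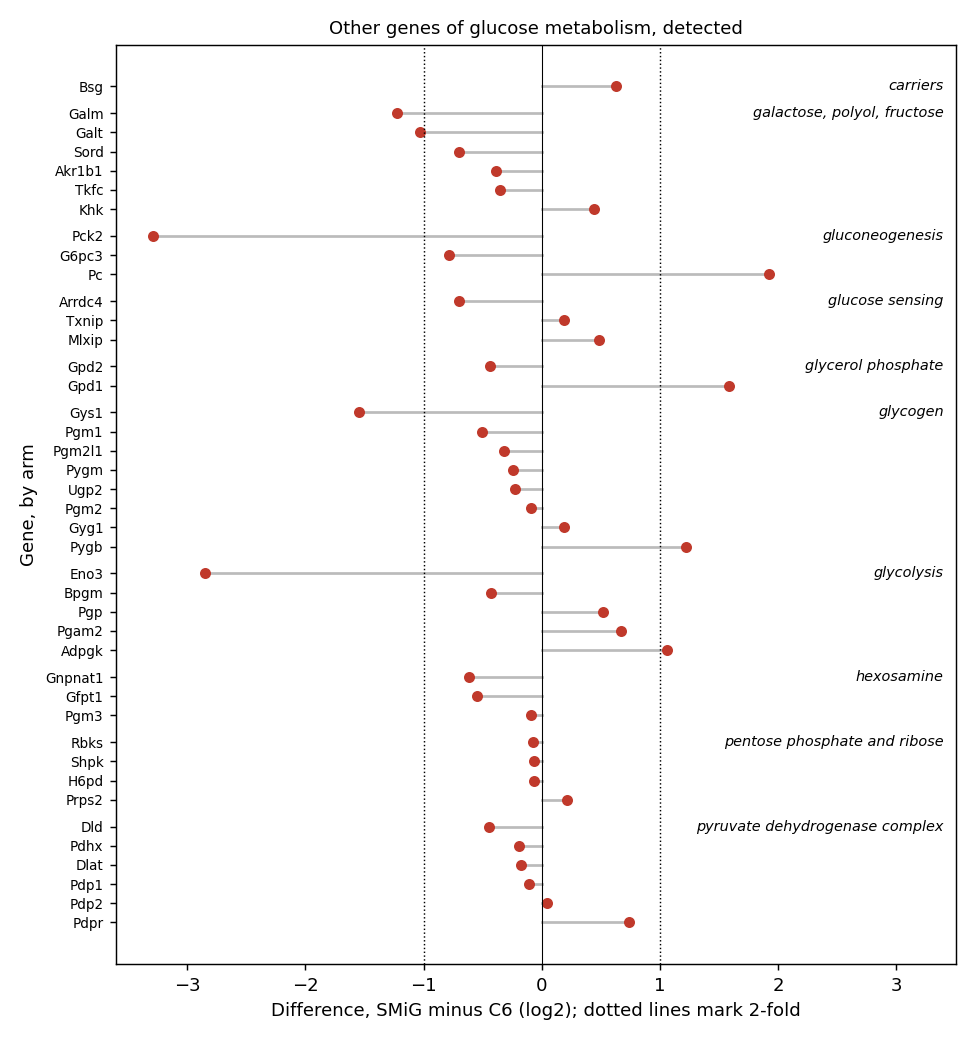
Log2 difference, SMiG minus C6, of the 41 detected genes of the wider list, grouped by arm, with dotted lines at 2-fold. Pck2 and Eno3 lie farthest left, at −3.29 and −2.85, and Pc and Gpd1 farthest right, at 1.93 and 1.58.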

How the data were processed

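RNA of 2 samples was hybridised to Affymetrix whole-transcript arrays, per the labels' protocols. Each probe set has 1 value per array in the deposited table. This was read as log2 expression that the authors had already normalized between arrays, since the medians of the C6 and SMiG columns were 4.84 and 4.86. The sources used here state neither the log base nor the normalization. Base 2 was inferred because values reach 13.09, above 11.09, the natural log of the highest 16-bit reading. The values were used as they stand, and the authors' summary of probes could change any fold.

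Of 36685 probe sets, 18511 had 1 symbol in the platform annotation, 575 several and 17599 none. Only the first were used, with probe sets of a gene averaged. RefSeq symbols of GRCr8, matched by gene number, were the same for all 38 members. The floor came from 1344 receptor genes, whose differences had an SD of 0.32. Folds are 2 to the power of the difference, and a gene below the floor on 1 array is given as at least the fold against that floor. The rule for named genes allowed every measured member, and of the wider list those past 2-fold plus the 8 next largest differences. The members, lists and rule were chosen with earlier results of these data known. The counting was tested on simulated data with large shifts in bright genes only. That check does not cover shifts near 2-fold or dim genes. Python 3.11.15, numpy 2.4.6, pandas 2.3.3, statsmodels 0.14.6 and matplotlib 3.10.9 were used.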

Additional observations from a re-analysis of the deposited data

How the results depend on the processing

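No replicate and no test exists here, so a value was compared with its own alternatives, and a change under 0.32, the SD of the silent receptor genes, was taken as no shift (for a count, a change within 1.5 times). Tried in turn were the 99th percentile as floor, no floor, values raised to the floor, centring, removal of a lowess trend (span 0.3), quantile normalization, the brightest probe set, each probe set alone and other fold thresholds. At 1.5-fold, 12 members were lower and 3 higher. Of the 41 detected genes of the wider list, 9 were lower and 7 higher (22.0% and 17.1%). The shares of all detected genes were 15.1% and 10.5%. At 3-fold, 2 members were lower and the wider list gave 2 lower and 1 higher, beside 2.51% and 0.734% of all detected genes. The count of members at least 2-fold lower was 7 after the lowess trend was removed, with Pdk4 added at −1.04, and 6 under the other normalizations and floors, and the count higher was 0 under each of them. With the stricter floor 31 members were detected and Slc16a1 alone was left of the lactate carriers, so their median was −0.84 in place of −0.32. The median of all detected members ranged from −0.19 to −0.17. Over all results and alternatives, 564 values stayed within these limits and 8 did not. Many of the 564 could not move. Every measured member has 1 probe set, a stricter floor or none leaves a gene's difference as it is, and centring leaves gaps unchanged. The tally is therefore no measure of robustness. Of the 36 detected members only Pfkfb1, at the floor, changed sign, with the lowess trend removed. With the brightest probe set Pfkfb1 was no longer detected. No paired analysis was possible because there is 1 array per group. Low signal limits Slc2a4, Slc16a3, Pfkfb1, Pfkfb2 and Pdk4, whose signal lay near the floor on at least 1 array.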
